A study of Mus musculus with 8 samples.

Results

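Mcemp1, Vgf, Fcor, Serpinb6b, Rpp38, Apip, Spink5 and Anxa1 are 8 genes of RAW264.7 cells that were chosen by name because earlier results on the same libraries showed them higher with antibodies against CD36, either beside lipopolysaccharide (LPS) or alone. They are 8 of the 10639 genes in the deposited table, and each name matched 1 row. RAW264.7 is a mouse macrophage-like line made by transformation with Abelson leukaemia virus, and it is labelled WT in every group. The 4 groups of 2 libraries each were cells given LPS together with anti-CD36 antibodies for 12 h (called the combination; its labels give no doses), cells given LPS at 50 ng/mL for 12 h, cells given anti-CD36 antibodies at 1:100 for 12 h, and untreated cells, which carry no time in their labels. No group received an antibody of another specificity, so what is given as an antibody difference is a difference from no antibody. All groups come from 1 transformed line. The labels do not tell whether replicate libraries came from separate cultures. A p-value here weighs a difference against the variation among these 8 libraries alone, and that variation may be technical.

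CD36 is a scavenger receptor of macrophages that binds oxidised lipoproteins and fatty acids, and LPS, a component of the outer membrane of Gram-negative bacteria, activates macrophages through Toll-like receptor 4. The 8 genes were not picked from a common pathway. Annexin A1 binds phospholipids in the presence of calcium, is induced by glucocorticoids and, once secreted, acts on formyl peptide receptors to restrain phagocyte responses. Serpins of clade B are intracellular inhibitors of serine proteases, and the Kazal-type inhibitor encoded by Spink5 holds back kallikrein-related peptidases in the skin. The others act in very different places: a membrane protein first described in mast cells (Mcemp1), a secreted neuropeptide precursor induced by nerve growth factor (Vgf), a corepressor of FoxO1 described in mouse adipose tissue (Fcor), a protein subunit of ribonuclease P (Rpp38) and an enzyme of methionine salvage that also binds Apaf-1 (Apip).

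Values are FPKM, in which reads are divided by transcript length and library size. The FPKM steps of single reads gave a depth of 47909099 to 71705304 reads a library, and from these the reads behind each value were recovered. Of 10 macrophage markers, 9 were in the table, with a summed FPKM of 3968 to 4500 in the combination, 4245 to 4314 with LPS, 4782 to 5406 with anti-CD36 and 3634 to 4224 in untreated cells. Single markers moved in opposite directions within these sums. Adgre1 stood at 82.8 to 84.1 with LPS and 12.2 to 13.8 in untreated cells. Csf1r stood at 102 to 104 with LPS and 306 to 311 in untreated cells. Of 6 mast cell markers only Hdc was in the table, of 6 granulocyte markers only Csf3r, and of 6 epithelial, 6 neuroendocrine and 6 adipocyte markers none. The 13 mitochondrially encoded genes held 3.28% to 4.47% of the summed FPKM in the combination, 3.94% to 4.10% with LPS, 6.59% to 15.75% with anti-CD36 (replicate 1 the higher) and 4.70% to 6.62% in untreated cells. In bulk RNA, a change in the number of expressing cells and a change in RNA per cell cannot be told apart.

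**Figure D1:**
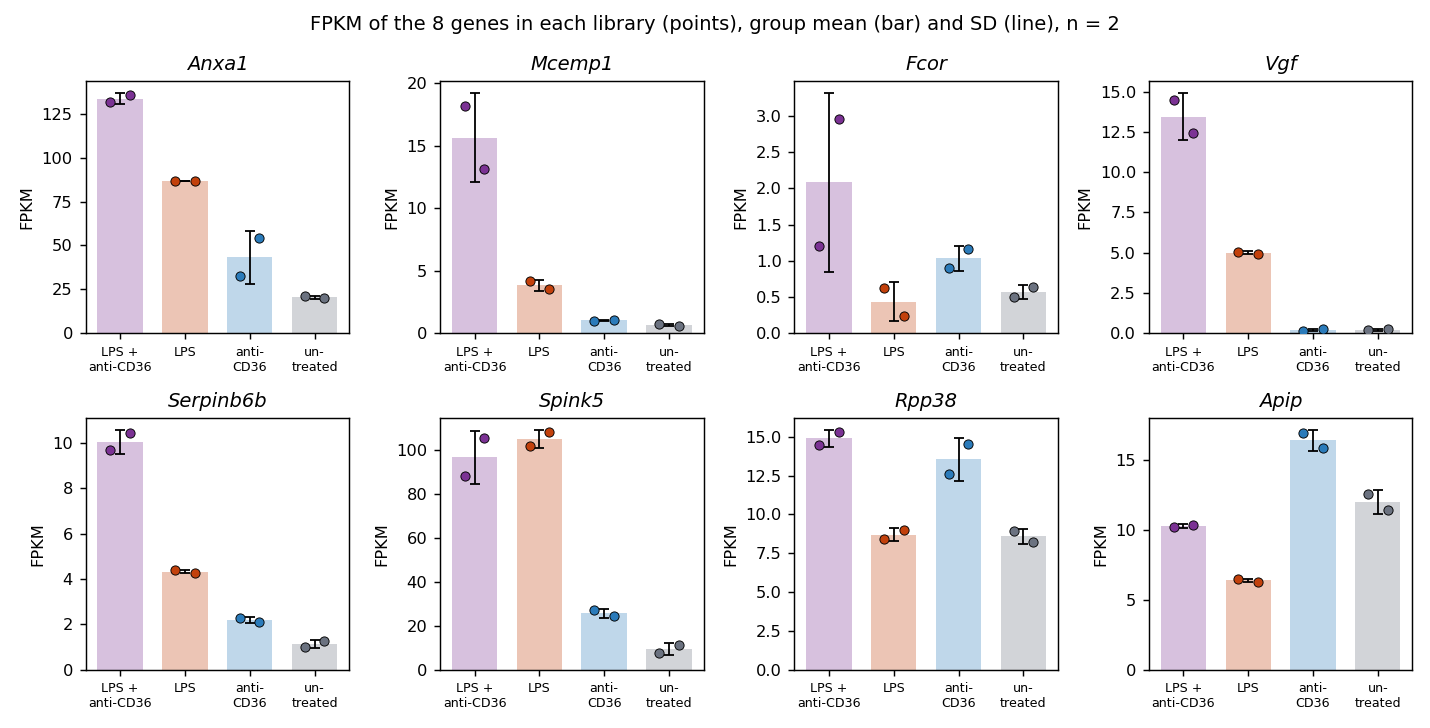
FPKM of each of the 8 genes in every library, with a panel per gene and a linear axis from 0; points are libraries, bars are means and lines are SD (n = 2 a group). Mcemp1 stands at 18.2 and 13.1 in the combination against 4.14 and 3.50 with LPS, Vgf is near 0 without LPS, and Apip is lower in both LPS groups than in the groups without LPS.

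Mcemp1 and Fcor are neighbours. Mcemp1 lies on chromosome 8 from 3665754 to 3669259 on the plus strand and Fcor from 3671188 to 3672362 on the minus strand (GENCODE M21, GRCm38), so that their ends face each other across 1929 bp. Mcemp1 had an FPKM of 18.2 and 13.1 in the combination, 4.14 and 3.50 with LPS, 0.978 and 1.05 with anti-CD36, and 0.685 and 0.569 in untreated cells. The groups stood in that order without overlap, and the combination mean of 15.7 ± 3.57 was 4.10 times the LPS mean of 3.82 ± 0.456 (SD, n = 2 each). The reads behind it were 1661 and 1050 in the combination and 57 and 61 in untreated cells. Hdc, the histidine decarboxylase gene and the 1 of 6 mast cell markers in the table, had an FPKM of 46.3 to 46.6 in the combination, 27.3 to 30.4 with LPS, 0.222 to 0.251 with anti-CD36 and 0.253 to 0.360 in untreated cells. Hdc was thus also higher with LPS, and higher still in the combination, and its part in the Mcemp1 values was not tested.

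Fcor had the fewest reads of the 8 genes in every library. Its FPKM was 1.21 and 2.96 in the combination, 0.623 and 0.241 with LPS, 0.905 and 1.16 with anti-CD36, and 0.504 and 0.640 in untreated cells. Both combination libraries were above all others, though replicate 1 at 1.21 only just above the higher anti-CD36 value of 1.16, and LPS and untreated cells overlapped. The values rest on 29 and 62 reads in the combination, 15 and 6 with LPS, 17 and 26 with anti-CD36, and 11 and 18 in untreated cells. Exact 95% Poisson intervals, which cover counting error only, are 0.0884 to 0.524 FPKM for the lower LPS value and 0.349 to 1.03 for the higher. That of the lower combination value is 0.810 to 1.74, which overlaps the interval of the higher LPS value. The difference of the combination from LPS was 1.06 on the log2(FPKM + 1) scale, 1.48 without combination replicate 1 and 0.64 without combination replicate 2. In the combination the neighbours moved apart between replicates: replicate 1 had more Mcemp1 reads than replicate 2 (1661 against 1050) and fewer Fcor reads (29 against 62). Their FPKM also moved apart between the untreated replicates. With LPS the FPKM of both was lower in replicate 2, and with anti-CD36 that of both was higher in replicate 2. Trappc5, the next gene beyond Fcor at 3937 bp, had a mean FPKM of 6.72 in the combination, 6.59 with LPS, 11.1 with anti-CD36 and 10.5 in untreated cells, and was not called in either antibody comparison (limma adjusted p = 0.964 beside LPS and 0.786 alone).

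Vgf lies on chromosome 5 from 137026392 to 137033351 (plus strand). It had an FPKM of 14.5 and 12.4 in the combination, 5.07 and 4.93 with LPS, 0.147 and 0.258 with anti-CD36, and 0.169 and 0.239 in untreated cells. It was close to silent without LPS, whether or not the antibody was present, with 21 to 51 reads a library in those 4 libraries, and the anti-CD36 and untreated values overlapped. Among cells given LPS the combination mean of 13.5 ± 1.47 was 2.69 times the LPS mean of 5.0 ± 0.0948 (SD, n = 2 each). Without LPS the ratio of the anti-CD36 mean to the untreated mean was 0.992.

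Serpinb6b (chromosome 13, 32965209 to 32979067, plus strand), reported in mouse to inhibit granzyme A, had an FPKM of 9.69 and 10.4 in the combination, 4.39 and 4.28 with LPS, 2.30 and 2.11 with anti-CD36, and 1.01 and 1.26 in untreated cells. The 4 groups did not overlap and kept the same order as for Mcemp1. The ratio of means was 2.32 for the combination over LPS and 1.95 for anti-CD36 over untreated cells. Clade B serpins of mouse include some closely related genes, and how reads with several matches were counted is not given in the sources used here. A share of these reads may therefore come from relatives.

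Anxa1 (chromosome 19, 20373428 to 20390944, minus strand) was the most abundant of the 8 in the combination. It had an FPKM of 132 and 136 there, 87.0 and 86.8 with LPS, 32.6 and 54.1 with anti-CD36, and 20.9 and 19.8 in untreated cells. The groups were ordered without overlap, but the anti-CD36 replicates differed by more than any other pair for this gene. The difference of anti-CD36 from untreated cells was 1.01 on the log2(FPKM + 1) scale, 1.37 without anti-CD36 replicate 1 and 0.66 without anti-CD36 replicate 2. Replicate 1, the lower of the pair, is the library with the high mitochondrial share; with mitochondrial genes left out and FPKM rescaled the difference was 0.92 ± 0.17 (SE). The lincRNA 1500015L24Rik overlaps Anxa1 on the other strand, and strand use in the counting is not given in the sources used here.

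Spink5 (chromosome 18, 43963235 to 44022501, plus strand) was the 1 gene of the 8 whose mean was not higher in the combination than with LPS. Its FPKM was 87.8 and 105 in the combination, 102 and 108 with LPS, 27.1 and 24.2 with anti-CD36, and 7.66 and 11.3 in untreated cells. The antibody values lay above untreated cells without overlap at a ratio of 2.70, while the combination and LPS values overlapped at a ratio of 0.92. Vgf had the reverse pattern, with overlap in cells without LPS and none in cells with LPS. Whether the antibody difference depends on LPS was not tested, since that test is made of the contrasts that chose the genes.

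Rpp38 (chromosome 2, 3328949 to 3332643, minus strand) was higher with the antibody in both settings. Its FPKM was 14.5 and 15.3 in the combination, 8.42 and 8.98 with LPS, 12.6 and 14.5 with anti-CD36, and 8.93 and 8.23 in untreated cells. The combination and anti-CD36 values overlapped, as did LPS and untreated values, while every antibody library lay above every library without antibody. Apip (chromosome 2, 103073675 to 103092644, plus strand) had an FPKM of 10.2 and 10.4 in the combination, 6.50 and 6.31 with LPS, 17.0 and 15.9 with anti-CD36, and 12.6 and 11.4 in untreated cells. The order of its groups was anti-CD36, untreated, combination and LPS, without overlap. The ratio of means was 1.61 for the combination over LPS and 1.37 for anti-CD36 over untreated cells.

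Both Rpp38 and Apip have a close neighbour on the other strand. Rpp38 and Nmt2, a protein N-myristoyltransferase gene, lie end to end across 72 bp, while Apip and Pdhx, which encodes a component of the pyruvate dehydrogenase complex, have their starts facing each other across 162 bp. Nmt2 had a mean FPKM of 11.4 in the combination, 11.8 with LPS, 10.4 with anti-CD36 and 10.8 in untreated cells. Its log2 difference was -0.06 ± 0.13 (SE) beside LPS and -0.04 ± 0.13 alone (limma adjusted p = 0.854 for each). Pdhx had a mean FPKM of 11.4 in the combination, 12.7 with LPS, 12.2 with anti-CD36 and 13.8 in untreated cells. Its log2 difference was -0.15 ± 0.10 beside LPS (limma adjusted p = 0.483) and -0.17 ± 0.10 alone (limma adjusted p = 0.311). Neither neighbour was called, and the Nmt2 estimates lay within their SE of 0. The medians of all tested genes were -0.02 beside LPS and -0.08 alone. The neighbours were looked up after the values of the 8 genes were known.

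The question that the choice of the genes leaves free is how they respond to LPS. The 4 libraries with LPS were compared with the 4 without it, each side averaged over antibody. With groups of equal size and equal spread, as the model takes them, this difference is uncorrelated with both antibody differences. The spread was not equal for every gene, so this may not hold strictly. The SD of Anxa1, for example, was 15.2 FPKM with anti-CD36 and 0.789 in untreated cells. LPS raised 5 of the 8 genes and lowered 1. Vgf rose by 2.95 ± 0.08 on the log2(FPKM + 1) scale (SE, limma adjusted p = 1.82e-07), Spink5 by 2.61 ± 0.13 (3.01e-06), Mcemp1 by 2.30 ± 0.11 (2.64e-06), Anxa1 by 1.85 ± 0.15 (3.22e-05) and Serpinb6b by 1.56 ± 0.07 (2.62e-06). In each of these 5, both combination libraries lay above both anti-CD36 libraries and both LPS libraries above both untreated ones, a pattern found in 20.1% of tested genes. Apip changed by -0.72 ± 0.07 (limma adjusted p = 9.03e-05). Fcor, at 0.20 ± 0.18 (limma adjusted p = 0.364), and Rpp38, at 0.07 ± 0.08 (0.435), were not called.

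Among all 10289 tested genes 21.6% were called higher and 43.1% lower by the same test, and the median difference was -0.17. Genes were tested if 2 or more libraries reached an FPKM of 1, which held for all 8. Vgf passed only through libraries with LPS and so could enter only by being high there. Mcemp1 reached an FPKM of 1 in 4 libraries with LPS and in only 1 without it, so it too could not have entered without its libraries with LPS. Fcor reached it in both combination libraries and 1 anti-CD36 library, and so also needed a library with LPS to pass. With no filter the same 6 genes were called, beside 21.4% higher and 43.1% lower among 10639. The median of all genes moved to 0.02 with median-ratio size factors, and there Rpp38 was called higher (0.27, limma adjusted p = 0.0121). With the trend against gene length removed from each library, Rpp38 was called lower (-0.24, limma adjusted p = 0.0448) and the estimate of Fcor turned to -0.38 (limma adjusted p = 0.144), so no direction is given for these 2 genes. Without combination replicate 1 Fcor was called at 0.41 (limma adjusted p = 0.0302), and without combination replicate 2 it stood at -0.01 (limma adjusted p = 0.945).

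**Figure D2:**
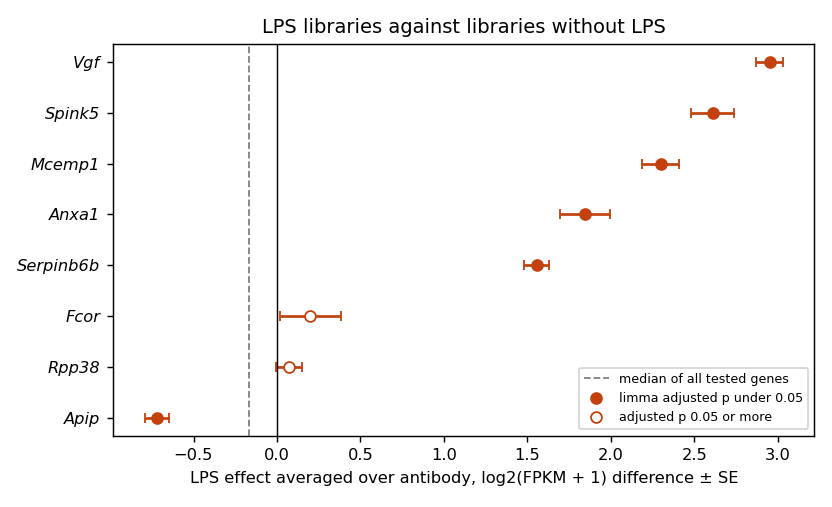
LPS effect averaged over antibody for the 8 genes, as the log2(FPKM + 1) difference of the 4 libraries with LPS minus the 4 without it, with SE lines; filled points are called by limma at an adjusted p under 0.05, and the dashed line is the median of all tested genes (-0.17). Vgf, Spink5, Mcemp1, Anxa1 and Serpinb6b lie between 1.56 and 2.95, Apip lies at -0.72, and Fcor and Rpp38 lie near 0.

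The sequences around the starts of 4 of the genes are shown, picked after the values were seen. They differ in CpG content between genes raised by LPS (Mcemp1 and Anxa1) and genes that were not (Rpp38 and Apip). They are RefSeq windows on GRCm38.p6 of 300 bases, from 250 before to 50 after the start, written 5′ to 3′ on the gene's strand, with CpG dinucleotides in capitals. The windows are chr8:3665512-3665811 (plus strand) for Mcemp1, chr19:20390622-20390921 (minus strand) for Anxa1, chr2:3332579-3332878 (minus strand) for Rpp38 and chr2:103073425-103073724 (plus strand) for Apip.
Mcemp1: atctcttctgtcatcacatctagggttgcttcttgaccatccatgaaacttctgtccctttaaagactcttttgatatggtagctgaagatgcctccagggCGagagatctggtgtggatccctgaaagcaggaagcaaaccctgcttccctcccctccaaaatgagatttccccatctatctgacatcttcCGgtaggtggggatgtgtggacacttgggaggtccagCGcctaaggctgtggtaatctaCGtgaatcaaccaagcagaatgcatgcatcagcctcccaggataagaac
Anxa1: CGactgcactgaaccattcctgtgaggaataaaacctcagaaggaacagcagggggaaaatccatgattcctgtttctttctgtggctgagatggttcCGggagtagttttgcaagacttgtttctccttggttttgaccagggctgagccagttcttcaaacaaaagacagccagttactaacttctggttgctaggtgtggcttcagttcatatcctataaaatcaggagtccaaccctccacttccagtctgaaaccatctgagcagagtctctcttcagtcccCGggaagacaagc
Rpp38: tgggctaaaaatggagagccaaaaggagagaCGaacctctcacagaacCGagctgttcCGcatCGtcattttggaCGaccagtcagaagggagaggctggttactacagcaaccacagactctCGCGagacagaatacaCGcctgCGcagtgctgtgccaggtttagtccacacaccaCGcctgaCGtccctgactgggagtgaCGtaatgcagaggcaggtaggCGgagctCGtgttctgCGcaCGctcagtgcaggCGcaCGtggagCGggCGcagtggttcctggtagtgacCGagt
Apip: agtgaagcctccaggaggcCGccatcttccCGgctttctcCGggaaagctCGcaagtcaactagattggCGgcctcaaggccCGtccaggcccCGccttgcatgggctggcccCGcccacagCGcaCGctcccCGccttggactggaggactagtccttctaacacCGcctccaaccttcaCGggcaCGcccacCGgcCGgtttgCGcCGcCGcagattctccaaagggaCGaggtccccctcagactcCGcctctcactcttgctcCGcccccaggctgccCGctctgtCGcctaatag

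Of the 8 genes, 6 had a window in the table; Vgf and Spink5 did not. CpG was counted 4 times in the Mcemp1 window, 3 in Anxa1, 4 in Serpinb6b, 12 in Fcor, 21 in Rpp38 and 24 in Apip, against a median of 7 over 32851 windows. The GC content was 49.3% for Mcemp1, 47.3% for Anxa1, 48.3% for Serpinb6b, 57.3% for Fcor, 58.0% for Rpp38 and 66.3% for Apip (median of all windows 52.7%). The CpG count was looked at after the values were seen and was not tested. The 3 CpG-poor windows belong to genes called higher with LPS. Those above the median belong to a gene called lower (Apip) and to Rpp38 and Fcor, which were not called on the deposited FPKM and are given no direction. Vgf and Spink5, also called higher, had no window to compare. Motifs were searched on both strands by their letters. TATAAA, the TATA box, was found in the Anxa1 window from base -32 to -27, counting from 0 at the base after the first 250, and occurs in 13.6% of all windows. That window lies wholly within the GENCODE span of Anxa1 (8 transcripts), so its RefSeq start is not the outer start of that span. TGANTCA, the AP-1 site, was found in the Mcemp1 window from base 3 to 9 (7.81% of windows), TTCNNNGAA, the gamma-activated site, in the Fcor window (8.30%), and GAGGAA, the PU.1 core, once in the Anxa1 and 2 times in the Serpinb6b window (28.3%). TGACGTCA (cAMP response element, 1.79%), the interferon-stimulated response element (3.44%), TCACGTGA (E-box, 0.974%), TTGCGCAA (C/EBP palindrome, 0.183%) and the NF-kB consensus (4.51%) were found in none of the 6. No 2 of these motifs overlapped in the 6 windows. These are matches of letters and were not tested for binding.

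The LPS difference was also read in each antibody setting, as a description, since each shares libraries with the contrasts that chose the genes. Vgf differed by 3.58 ± 0.11 between the combination and anti-CD36 and by 2.32 ± 0.11 between LPS and untreated cells (log2 difference ± SE), and Mcemp1 by 3.03 ± 0.16 and 1.56 ± 0.16. Spink5 had the opposite order, at 1.87 ± 0.18 with the antibody and 3.36 ± 0.18 without it. Serpinb6b differed by 1.79 ± 0.11 and 1.32 ± 0.11, Anxa1 by 1.65 ± 0.21 and 2.04 ± 0.21, and Apip by -0.63 ± 0.10 and -0.81 ± 0.10.

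The antibody differences are what the 8 genes were chosen for and are described without a test. Both combination libraries lay above both LPS libraries in 7 of the 8 (all but Spink5), where 28.5% of tested genes did so. Both anti-CD36 libraries lay above both untreated ones in 7 (all but Vgf), where 16.7% did so, and 6 had both patterns, beside 7.77% of tested genes. The differences of the combination from LPS were 1.78 ± 0.16 for Mcemp1, 1.26 ± 0.11 for Vgf, 1.06 ± 0.26 for Fcor, 1.05 ± 0.11 for Serpinb6b, 0.71 ± 0.11 for Rpp38, 0.62 ± 0.21 for Anxa1, 0.61 ± 0.10 for Apip and -0.12 ± 0.18 for Spink5 (log2 difference ± SE). Those of anti-CD36 from untreated cells were 1.37 ± 0.18 for Spink5, 1.01 ± 0.21 for Anxa1, 0.60 ± 0.11 for Rpp38, 0.59 ± 0.11 for Serpinb6b, 0.42 ± 0.10 for Apip, 0.37 ± 0.26 for Fcor, 0.31 ± 0.16 for Mcemp1 and -0.003 ± 0.11 for Vgf.

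Gene length moved with these differences. Across 10035 tested genes with a length, which are not independent replicates, the difference of the combination from LPS had a Spearman rho of -0.476 with the summed exon length, and that of anti-CD36 from untreated cells a rho of -0.445. Shorter genes thus tended to stand higher with the antibody. In the shortest of 4 length classes of about equal size, of up to 2671 bp, 15.2% had all antibody libraries above their counterparts without antibody in both settings, against 9.25%, 4.63% and 1.79% in the following classes. Of the 8 genes, 7 were shorter than the median tested gene of 4335 bp and 5 fell in the shortest class: Fcor (392 bp), Apip (1000 bp), Rpp38 (1042 bp), Mcemp1 (1494 bp) and Serpinb6b (2262 bp). Anxa1 measured 2911 bp, Vgf 2973 bp and Spink5 4785 bp.

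With the length trend removed from each library, the differences of anti-CD36 from untreated cells were 0.08 ± 0.29 for Fcor, 0.09 ± 0.15 for Mcemp1 and 0.14 ± 0.17 for Apip, so these 3 came within their SE of 0. Rpp38 stood at 0.32 ± 0.13, Serpinb6b at 0.44 ± 0.13, Anxa1 at 0.92 ± 0.20 and Spink5 at 1.40 ± 0.17. Beside LPS the adjusted differences were 1.61 ± 0.15 for Mcemp1, 1.17 ± 0.11 for Vgf, 0.98 ± 0.29 for Fcor and 0.92 ± 0.13 for Serpinb6b. They were 0.54 ± 0.13 for Rpp38, 0.52 ± 0.20 for Anxa1 and 0.43 ± 0.17 for Apip. The part of RNA quality or library preparation in the length trend was not tested.

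**Figure D3:**
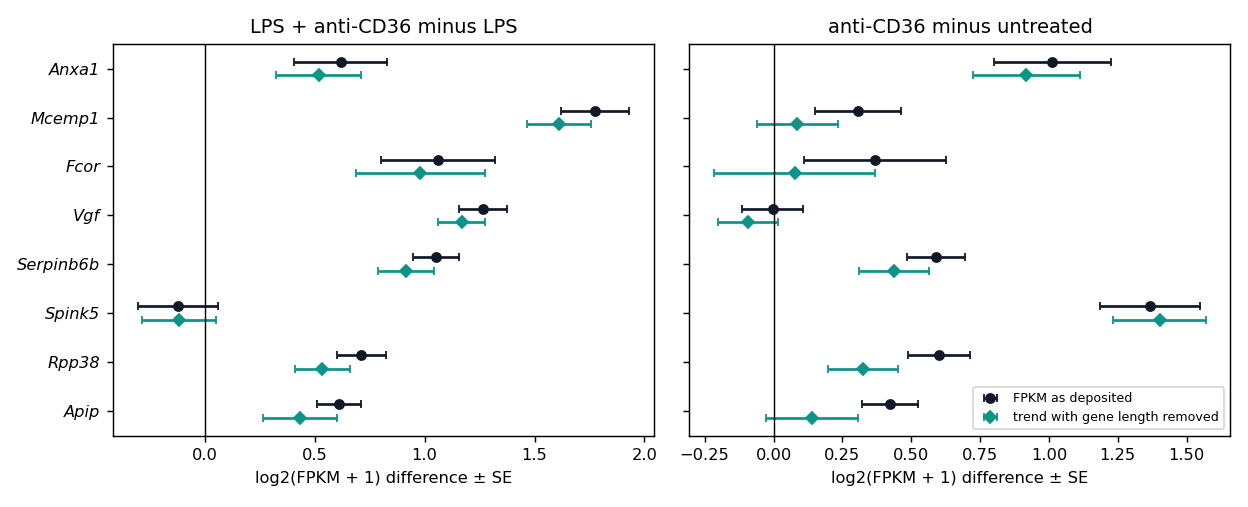
Antibody differences of the 8 genes on the log2(FPKM + 1) scale with SE lines, for the combination minus LPS (left) and anti-CD36 minus untreated cells (right); black circles use the deposited FPKM and green diamonds have the trend against gene length removed. Mcemp1 keeps 1.61 of 1.78 beside LPS but 0.09 of 0.31 without LPS, and Spink5 lies to the right of 0 only in the right panel.

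**Figure D4:**
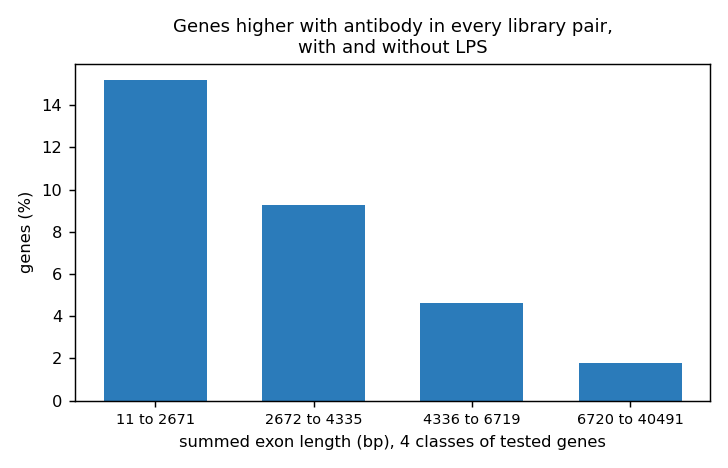
Share of tested genes (percent, bars from 0) whose antibody libraries all lay above their counterparts without antibody, with LPS and without it, in 4 classes of genes by summed exon length in bp. The share falls from 15.2% in the shortest class to 1.79% in the longest.

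Related genes were taken from 8 lists built around the members' roles, with the members left out; 86 of 164 listed genes were tested. In the combination against LPS, 3 were called higher and 2 lower (limma), where 0.36% and 1.42% of all tested genes were. In anti-CD36 against untreated cells 6 were called higher and 7 lower, where 3.04% and 10.6% were. Leaving out untreated replicate 1 or untreated replicate 2 brought the calls in both comparisons to 0, and leaving out any 1 LPS or combination library brought those of the combination against LPS to 0. With anti-CD36 replicate 1 left out, 15 were called in the combination against LPS and 40 in anti-CD36 against untreated cells, and with replicate 2 left out 17 and 25. In anti-CD36 against untreated cells, 5 were called with LPS replicate 1 left out and 5 with replicate 2 left out, and 6 with combination replicate 1 left out and 6 with replicate 2 left out.

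Of 13 tested annexins and partners of Anxa1, 5 rose and 6 fell with LPS (median -0.36, against -0.17 for all tested genes). The balance turned with the scaling, to 6 higher and 4 lower with size factors and 3 higher and 7 lower with mitochondrial genes left out. Calls over all tested genes turned too, from 2221 higher and 4439 lower to 3376 and 3273 with size factors. With mitochondrial genes left out they were 1490 and 5666. These splits are also the comparison for the lists below. Anxa3 rose by 1.89 ± 0.08 (limma adjusted p = 1.27e-06), while Anxa9 changed by -1.19 ± 0.09 and S100a11, a calcium-binding partner of Anxa1, by -1.15 ± 0.26. Anxa3 was the 1 member of this list called with anti-CD36 alone, at a mean FPKM of 9.20 against 5.98 in untreated cells (0.54 ± 0.11, limma adjusted p = 0.0232). None of the 13 was called by limma in the combination against LPS, where 1 was higher and 1 lower at an unadjusted p under 0.05. The share of all tested genes at that unadjusted threshold was not counted, here or for the lists below. S100a11 averaged 1656 ± 982 FPKM with anti-CD36 against 638 ± 36.1 in untreated cells (SD, n = 2 each), a log2 difference of 1.24 ± 0.36 that was not called (limma adjusted p = 0.0628).

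Of 23 other clade B serpins 3 were tested. Serpinb6a had a mean FPKM of 20.6 in the combination, 18.0 with LPS, 17.6 with anti-CD36 and 11.7 in untreated cells, and was called higher with anti-CD36 (0.55 ± 0.12, limma adjusted p = 0.0273) but not beside LPS (0.18 ± 0.12, limma adjusted p = 0.449). Serpinb9, an inhibitor of granzyme B that lies 24183 bp beyond Serpinb6b, averaged 3.29 in the combination against 1.64 with LPS (0.69 ± 0.12, limma adjusted p = 0.0443), a call kept in 6 of 17 alternatives, over which the difference ran from 0.32 to 0.95. With LPS, Serpinb9 rose by 0.87 ± 0.09 and Serpinb6a by 0.40 ± 0.08, and Serpinb8 fell by 2.45 (limma adjusted p = 1.4e-06); with mitochondrial genes left out, 1 of 4 tested was called higher and 2 lower. Of 25 listed Kazal-type inhibitors and peptidases around Spink5 only Agrn and the protease gene St14 were tested. Agrn, which carries Kazal-like domains, was called lower with anti-CD36, at a mean FPKM of 2.14 against 4.20 in untreated cells (-0.73 ± 0.10, limma adjusted p = 0.0136), and higher with LPS (0.91 ± 0.07). St14 fell by 0.73 with LPS.

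Of 9 other subunits of ribonucleases P and MRP, 2 were called higher with anti-CD36 alone and 1 lower, with a median difference of 0.30 against -0.08 for all tested genes. Rpp40 averaged 2.98 with anti-CD36 against 1.89 in untreated cells (0.46 ± 0.12, limma adjusted p = 0.0469), Pop4 averaged 6.37 against 4.58 (0.40 ± 0.11, 0.0474), and Pop1 averaged 11.1 against 15.03 (-0.41 ± 0.10, 0.035). The Rpp40 call was kept in 6 of 17 alternatives, the Pop4 call in 6 of 18 and the Pop1 call in 9 of 18. Among the losses, Rpp40 and Pop4 were lost with a pseudocount of 0.1, and Pop1 with size factors or quantile normalization. Rpp40 was also lost without anti-CD36 replicate 1, and Pop4 without anti-CD36 replicate 2. With the length trend removed the median was 0.07 and 1 was called in each direction, and with mitochondrial genes left out none was called higher. None was called by limma in the combination against LPS (1 higher and 1 lower at an unadjusted p under 0.05), where the median was 0.26 against -0.02. With LPS only Pop5 of the 9 was called (0.32 ± 0.12, limma adjusted p = 0.0478), while with mitochondrial genes left out 2 were called lower and none higher. The other enzymes of methionine salvage and polyamine synthesis had 0 of 18 called in either antibody comparison by limma; at an unadjusted p under 0.05, 1 was lower in the combination against LPS and 1 higher with anti-CD36 alone. With LPS 6 rose and 6 fell (8 and 3 with size factors, 2 and 9 with mitochondrial genes left out), led by Odc1, the first enzyme of polyamine synthesis (3.13 ± 0.12), Sat1, which acetylates polyamines (2.02 ± 0.24), and Mat2a, which makes S-adenosylmethionine (-1.89 ± 0.07). Mean FPKM of Odc1 was 2499 in the combination, 2233 with LPS, 316 with anti-CD36 and 230 in untreated cells.

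Of 13 tested genes for prohormone processing and CREB-responsive transcription, around Vgf, 9 rose and 1 fell with LPS (median 1.00), against 7 and 3 with mitochondrial genes left out. Nr4a1 rose by 2.89 ± 0.12, Nr4a3 by 2.72 ± 0.07 and the prohormone convertase gene Furin by 1.61 ± 0.09. Fos was the 1 gene of this list called in the combination against LPS, at a mean FPKM of 11.9 against 4.47 (1.25 ± 0.18, limma adjusted p = 0.0255), and Furin was called lower with anti-CD36 alone, at 5.77 against 10.5 in untreated cells (-0.77 ± 0.13, limma adjusted p = 0.0165). No granin gene was among the 13. For comparison with each list, 21.6% of all tested genes were called higher with LPS and 43.1% lower (limma), with a median of -0.17. Of 15 tested FoxO factors and targets, around Fcor, 12 fell and none rose with LPS (median -0.50; 1 rose at an unadjusted p under 0.05, and 9 to 13 fell and up to 1 rose under the other scalings), among them Klf2 (-1.63 ± 0.08), Ccng2 (-1.31 ± 0.11) and Sesn1 (-0.99 ± 0.07). With anti-CD36 alone 4 were called lower: Foxo3 (-0.91 ± 0.14), Ep300 (-0.99 ± 0.23), Insr (-0.78 ± 0.10) and Cdkn1b (-0.54 ± 0.14). The call of Cdkn1b was kept in 6 of 18 alternatives, with a difference of -0.63 to -0.44 over all of them, and that of Ep300 in 9 of 18, with a difference of -1.35 to -0.62. In the combination against LPS, Klf2 was called higher, at a mean FPKM of 2.65 against 0.951 (0.90 ± 0.12, limma adjusted p = 0.0214). Ccng2 (-0.93 ± 0.15, limma adjusted p = 0.0387) and Insr (-0.60 ± 0.10, 0.0395) were called lower there, and both calls were lost with the length trend removed.

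Of 13 tested myeloid membrane proteins and neighbours of Mcemp1, 5 rose and 4 fell with LPS. The C-type lectin gene Clec4e rose by 3.63 ± 0.08 and Ms4a6c by 3.09 ± 0.15, and Trem2 changed by -2.40 ± 0.18. Clec5a and Clec4e were called higher with anti-CD36 alone. Clec5a, a C-type lectin of myeloid cells, averaged 27.7 with anti-CD36 against 13.6 in untreated cells (0.98 ± 0.12, limma adjusted p = 0.0128), and Clec4e averaged 16.4 against 10.8 (0.55 ± 0.11, limma adjusted p = 0.0213), a call lost with mitochondrial genes left out. In the combination against LPS none of the 13 was called by limma, and 0 had an unadjusted p under 0.05.

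The genes whose pattern over the 8 libraries was most like that of each member were found among 6489 or 6490 genes with a mean FPKM of at least 5, by Pearson's r of log2(FPKM + 1), given as a description because the libraries share the LPS groups and the length trend. For Vgf they were the myeloid receptor gene Cd300e (r = 0.997) and Timp1 (0.997). Cd300e averaged 14.8 in the combination, 6.39 with LPS, 0.948 with anti-CD36 and 1.11 in untreated cells. For Spink5 they were Ifi44 (0.996) and Gtpbp4 (0.996), and for Anxa1 the proteasome gene Psmd14 (0.993) and Pnp (0.992). Apip was most like Ruvbl1 (0.991) and the DNA repair gene Xrcc5 (0.985), and Serpinb6b most like St3gal5 (0.988) and the actin-depolymerizing Dstn (0.985). Mcemp1 was most like the RNA polymerase II subunit gene Polr2c (0.987) and Limd2 (0.985). Rpp38 was most like Znhit6, a factor of small nucleolar RNA assembly (0.971), and the proton-sensing receptor gene Gpr65 (0.963). Gpr65 averaged 6.86 in the combination, 4.09 with LPS, 6.08 with anti-CD36 and 3.39 in untreated cells. Fcor had the weakest likeness, to Hnrnpc (0.917) and Txnl1 (0.878).

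Among the members themselves, Mcemp1, Vgf, Serpinb6b, Anxa1 and Spink5 had correlations of 0.819 (Mcemp1 with Spink5) to 0.977 (Mcemp1 with Serpinb6b) over the 8 libraries. Rpp38 was most like Fcor (0.807). Apip ran against the 5 genes raised by LPS, from -0.655 with Spink5 to -0.427 with Serpinb6b. Mcemp1 and Fcor, the neighbours on chromosome 8, had a correlation of 0.553.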

How the data were processed

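Gene expression was measured by RNA sequencing in 8 libraries in 4 groups of 2. The authors deposited 1 table of FPKM values by gene symbol. Alignment with HISAT2 2.0.5 is named in the submitters' processing notes, which list both mm10 and hg38. What hg38 was used for, the counter, the annotation, strand use and the handling of reads with several matches are not given in the sources used here. No gene in the table was at 0 in any library, so genes at 0 anywhere were not analysed here. Although the labels also name 10x Genomics, each library has a single value for a gene, so bulk methods were used. The 8 genes and the gene lists were chosen with earlier results of these data known.

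Library depth was recovered from FPKM steps in single-transcript genes under 1500 bp with GENCODE M21 exon lengths (GRCm38, the same assembly as mm10). Of the 207 to 282 such genes with up to 60 reads per library, 89.5% to 93.0% came out as whole reads within 0.05. Read counts served as depth and were not tested. Differences were tested on log2 values after a pseudocount of 1 FPKM, with limma 3.58.1 (R 4.3.3), in the 10289 genes that reached an FPKM of 1 in 2 or more libraries. The model had 4 group means and a spread shared by all 8 libraries, with 4 residual degrees of freedom, 3.46 prior ones and a trend on expression, tests were two-sided, and calls used a Benjamini-Hochberg adjusted p under 0.05 over all tested genes. The pseudocount makes the fold of a low gene look smaller than it is. The fit was tested on simulated data. The named genes were the 8 members, the 2 genes most correlated with each, the genes of each list called in an antibody comparison and up to 3 genes of each list with the largest called LPS difference. Other genes, such as S100a11 in the antibody comparison, Trappc5, Nmt2 and Pdhx, were named after their values were seen. The trend with length was removed per library by lowess (span 0.3) on log10 exon length. Promoter windows came from RefSeq (GRCm38.p6). The alternatives tried were other pseudocounts, filters and scalings, mitochondrial genes left out, the length trend removed, no trend on expression, a replicate block and each library left out.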

Additional observations from a re-analysis of the deposited data

How the results depend on the processing

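The calls of Vgf, Spink5, Mcemp1, Anxa1 and Serpinb6b (higher with LPS) and of Apip (lower) held under each alternative that could be run for them; with a mean FPKM of at least 5, Vgf, Fcor and Serpinb6b were not tested. The LPS difference of Rpp38 was 0.24 with quantile normalization and -0.12 with mitochondrial genes left out, and 0.27 with size factors. With the length trend removed Rpp38 stood at -0.24 and Fcor at -0.38. Fcor stood at 0.409 without combination replicate 1 and -0.011 without combination replicate 2. All tested genes called for LPS numbered 6660, 4358 with a mean FPKM of at least 5 (fewer genes tested), and 5505 to 7653 without 1 library. The split was 2221 higher and 4439 lower as deposited, 3376 and 3273 with size factors, 2968 and 3598 with quantile normalization, and 1490 and 5666 with mitochondrial genes left out. Called members numbered 6 to 7 without 1 library. Other listed genes called for LPS numbered 60 (52 to 70 without 1 library). With anti-CD36 alone 13 were called, 8 with a mean FPKM of at least 5, and 0 to 40 without 1 library. In the combination against LPS 5 were called, 2 with a mean FPKM of at least 5, 3 with mitochondrial genes left out, 2 with the length trend removed, and 0 to 17 without 1 library. With a replicate block 7 listed genes were called with anti-CD36 alone and 0 in the combination against LPS (the cause was not tested), and the block changed no LPS call of a member. The replicate numbers were not taken to pair libraries: replicate differences correlated at -0.645 to 0.53 between groups. At its depth, Fcor rests on 6 to 62 reads a library, which limits any statement about it.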
